A study of Rattus norvegicus with 47 samples.

Results

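Cklf encodes chemokine-like factor, a small protein whose human form attracts leukocytes. It was followed in the testis of rats given methoxyacetic acid (MAA) or saline. The platform's annotation gives the symbol Cklf to 1 probe, probe 17558 (Gene ID 245978), 1 of 9645 genes with a symbol on the array. These genes are named by 12736 of the 20500 probes tested, and 7759 probes carry no symbol and 5 several. The gene was chosen by its measured log2 change at 12 h, which was the deepest fall after MAA of all probes with 1 gene symbol. That fall is therefore described here without a test, and tests are given for the other times only.

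RNA came from the testis parenchyma of 47 male Sprague-Dawley rats, aged 90 days. Treated animals were injected intraperitoneally with 650 mg/kg of methoxyacetic acid and sampled after 4, 8, 12 or 24 h, beside saline animals of the same times. Each of the 8 groups held 6 animals, except for the 4 h saline group with 5. Each testis sample was hybridised on an array of its own against a universal rat reference RNA, a commercial RNA common to all arrays.

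Glycol ether solvents are converted in the body to MAA, which is toxic to spermatocytes, the germ cells in meiosis. Cklf belongs to the CKLF-like MARVEL transmembrane family (Cmtm genes), small proteins that cross the membrane several times. Human CKLF1 is known as a ligand of the chemokine receptor CCR4, and several family genes lie side by side in the genome. In bulk testis RNA, fewer cells of a type and less RNA per cell cannot be told apart.

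In the reference annotation Cklf lies on the minus strand of rat chromosome 19. The 300 bases around its start are shown to locate the gene and the common promoter letters in it. They run from 250 bases before the start to 50 after it, chr19:712949-713248 on the minus strand of GRCr8, from RefSeq. The part of the window from 713043 onwards also lies within the annotated gene Tk2.
Cklf promoter: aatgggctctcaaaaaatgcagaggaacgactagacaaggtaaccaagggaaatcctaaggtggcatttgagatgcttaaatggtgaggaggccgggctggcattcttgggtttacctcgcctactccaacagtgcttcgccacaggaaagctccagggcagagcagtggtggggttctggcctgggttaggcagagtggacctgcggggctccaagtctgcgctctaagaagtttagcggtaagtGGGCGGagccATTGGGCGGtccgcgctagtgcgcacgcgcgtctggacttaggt
The capitals mark 2 matches to the GC box GGGCGG and 1 match to the CCAAT box, here as ATTGG on the other strand, which overlaps the second GC box. The first GC box spans the start, and the other matches lie after it. On both strands, 33.1% of 33469 promoter windows of this length hold a GC box and 37.5% a CCAAT box. The window holds no TATAAA (14.2% of windows do), no TGACGTCA (1.83%) and no CACGTG (6.42%). The arrays measured transcript levels only, so nothing in these data bears on binding to these letters.

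All levels are log2 ratios of testis over reference, normalised within each array. The channel headed Cy3 was taken as testis, against the labels, which name Cy5, and with the labels' dyes every sign would turn. In the channel headed Cy3, 11 spermatocyte marker genes had a median log2 ratio of 0.96, above 0 on 47 of 47 arrays. A set of 15 genes of other organs, put together after the files were seen, stood at -1.75, above 0 on 0 of 47 arrays. The median array had a testis-channel brightness of 803 units and 60.8% of probes above background. The Cklf probe was above background on 47 of 47 arrays and saturated on 0. The number of arrays limits the precision.

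The normalised log2 ratio of Cklf was above 0 in all 23 saline animals, and no difference between saline animals of 4, 8 and 24 h passed. Testis was taken from the same channel on every array, so a level against the reference cannot be told apart from a dye difference. In raw units the testis channel was dimmer than the reference on some saline arrays, as in animal 5 of 4 h (2595.5 against 5564). The saline animals of 4 h stood at 0.61, 0.63, 0.67, 0.87 and 0.88. Those of 8 h ran from 0.53 to 0.98 with a median of 0.75, and those of 12 h from 0.62 to 0.96 with a median of 0.88. Those of 24 h ran from 0.61 to 0.86 with a median of 0.65. These ranges overlap one another throughout. The fitted difference between saline animals of 24 h and 4 h was 0.34, with a 95% interval from -0.21 to 0.89 (adjusted p 0.86, limma). That between 8 h and 4 h was 0.20 (-0.34 to 0.74, adjusted p 0.88), and that between 24 h and 8 h was 0.14 (-0.33 to 0.61, adjusted p 0.98). In these 3 comparisons 0.00488%, 0% and 0% of the 20500 probes passed, with 1418, 1722 and 1180 at an unadjusted p under 0.05.

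At 4 h the treated and saline animals overlapped. The treated animals of 4 h ran from -0.65 to 0.94 with a median of 0.65. Of these 6, 4 lay above the lowest saline animal and 1, animal 3, stood far below the rest. The log2 change, MAA minus saline, was -0.19 ± 0.18 (SE, n = 6 and 5), with an interval from -0.55 to 0.18 (adjusted p 0.89, limma). At 4 h 0.0195% of the 20500 probes passed. Without animal 3 the change was -0.04 ± 0.15 (adjusted p 0.98). Animal 3 was hybridised on a date that held 1 treated array of each time and no saline array. The other arrays of that date stood at 0.01 (8 h), -0.53 (12 h) and -0.46 (24 h). On the dates shared by treated and saline animals of 4 h the changes were -0.01 and -0.05, with 2 and 2 animals each. What sets animal 3 apart was not tested.

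At 8 h every treated animal lay below every saline animal. The treated animals ran from -0.15 to 0.11 with a median of 0.01, against 0.53 as the lowest saline value. The log2 change was -0.76 ± 0.17 (SE, n = 6 and 6), 1.70-fold lower, with an interval from -1.12 to -0.41. Over all probes it did not pass (adjusted p 0.18, limma), at a time when 0.00976% of the 20500 probes did. An exact permutation test over the 12 arrays of 8 h, two-sided and without regard to date, gave p = 0.0022. That is the smallest p that its 924 splits allow (permutation, adjusted p 0.0032 over the 3 times tested). This test was added beside the planned fit. Its p restates the separation of the groups and is not adjusted over all probes. On the 2 shared dates the changes were -0.92 and -0.76, with 2 and 2 animals each. Without animal 3 of the 4 h group, which shares the estimates of spread and of dates, the 8 h change was -0.80 and passed (adjusted p 0.0081). It also passed with no date term (-0.76, adjusted p 0.041), with date as a random block (-0.75, adjusted p 0.036) and in the testis channel alone (-0.69, adjusted p 0.049). It did not pass with median centring (adjusted p 0.064), scale normalisation (0.12), the deposited ratio or processed channels (0.15 each), among probes above background (0.071) or on the 8 h arrays alone (0.52). In the change at 8 h Cklf ranked 11th from the lowest of all probes, and between 6th (median centring) and 23rd (testis channel alone) under other scalings.

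At 12 h, the time for which the gene was chosen, the log2 ratio of Cklf was below 0 in all treated animals. Their levels ran from -1.18 to -0.22 with a median of -0.66, while the lowest saline animal was at 0.62. The 2 groups do not overlap, as the choice of the gene would have it. The mean level was -0.68 ± 0.35 (SD, n = 6) after MAA and 0.85 ± 0.13 (SD, n = 6) after saline. The fitted log2 change was -1.58 ± 0.18 (SE), 2.99-fold lower, and on the shared dates it was -1.74 (2 and 2 animals) and -1.52 (1 treated and 2 saline animals). The next deepest falls among probes with 1 symbol were those of Cks2 and Gmcl1, each at -1.50, and Pou5f2 at -1.27. Among all probes, with or without a symbol, Cklf ranked 2nd from the lowest at 12 h. Under other scalings it ranked between 1st (deposited ratio) and 5th (testis channel alone). At 12 h 2.53% of the probes passed, from which nothing is read about Cklf. The file of treated animal 27 holds the reference channel of another array, treated animal 15 of 8 h. Its level was -0.53, and without it the change at 12 h was -1.68. Without both arrays the change was -0.86 at 8 h, where it passed (adjusted p 0.015).

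At 24 h, a time whose contrast was not used to choose the gene, Cklf was lower after MAA. The main fit shares its estimates of spread and of dates with the 12 h arrays. The treated animals ran from -0.93 to -0.09 with a median of -0.35, and the lowest saline animal was at 0.61, so that all 6 treated animals lay below all 6 saline ones. The log2 change was -1.02 ± 0.17 (SE, n = 6 and 6), 2.03-fold lower, with an interval from -1.37 to -0.67 (adjusted p 0.00068, limma). At 24 h 2.99% of the 20500 probes passed, and Cklf ranked 10th from the lowest of all probes, and between 7th (deposited ratio) and 22nd (testis channel alone) under other scalings. The exact permutation test over the 12 arrays of 24 h gave p = 0.0022 (two-sided, adjusted p 0.0032 over the 3 times tested). As at 8 h, it took no account of date, gave the smallest p its splits allow and restates the separation of the groups. At 4 h the same permutation test gave p = 0.55. Within the shared dates the changes were -1.29 and -0.90, with 2 and 2 animals each. Leaving out each array in turn gave changes from -1.09 to -0.89, with adjusted p between 1.3e-05 and 0.0074 in limma. The change of -1.09 (adjusted p 1.3e-05) was that without animal 3 of the 4 h group. Fitted on the 24 h arrays alone, with no array of 12 h in the estimate, the change was -1.09 ± 0.18 and did not pass (adjusted p 0.054), in a fit where 16 probes did.

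**Figure D1:**
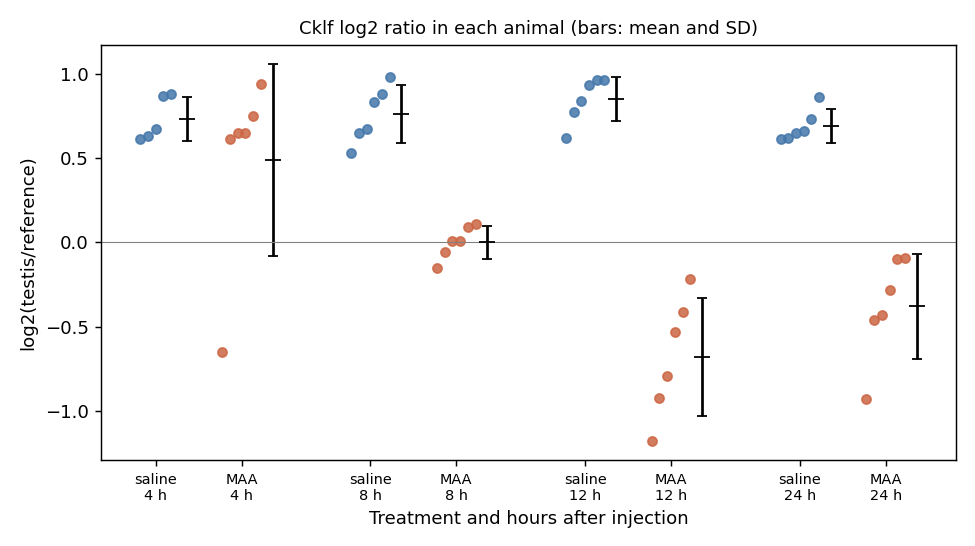
Level of Cklf in each animal as log2(testis/reference), by treatment and hours after injection. Each point is 1 animal, blue for saline and orange for MAA, and black bars show mean and SD. Treated animals lie below all saline animals of their time at 8, 12 and 24 h, and at 4 h 1 treated animal stands at -0.65.

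Ordered by mean level without regard to hybridisation date, the 4 saline groups came first, 12 h (0.85), 8 h (0.76), 4 h (0.73) and 24 h (0.69). The treated groups followed as 4 h (0.49), 8 h (0.00), 24 h (-0.38) and 12 h (-0.68). Of the 7 gaps between neighbours in this order, that between treated animals of 8 h and 24 h (0.38) was larger than the larger SD of its 2 groups (0.31). The other gaps were not, including that between treated animals of 24 h and 12 h (0.30, SD 0.35). With date removed the saline order changed to 12 h (0.90), 24 h (0.85), 8 h (0.71) and 4 h (0.51). The treated groups kept their order, at 0.32, -0.05, -0.17 and -0.68, but those of 8 h and 24 h then lay close together and those of 24 h and 12 h far apart, so the reading of these gaps depends on date. The change at 24 h differed from that at 4 h by -0.83 ± 0.24 (adjusted p 0.13, limma), where 0.322% of the probes passed, 0.0878% with a lower value. Without animal 3 of the 4 h group this difference was -1.05 and passed (adjusted p 0.016). The change at 24 h differed from that at 8 h by -0.26, with an interval from -0.73 to 0.22 (adjusted p 0.83, 0% of probes passed, 1655 at an unadjusted p under 0.05). The change at 8 h differed from that at 4 h by -0.58 (adjusted p 0.77, 0% of probes passed, 1291 at an unadjusted p under 0.05). The effects at 12 h enter none of these tests.

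The fall was mainly in the testis channel, with smaller changes of opposite sign in the reference channel. The raw testis intensity of the probe had a median of 4313 units in saline animals of 12 h (3102 to 6793) and of 1451 in treated ones (945 to 1974). At 24 h the medians were 3422 (2167 to 6647) and 1652 (1218 to 2324), and at 8 h 3406 (1719 to 4889) and 2231 (1752 to 2655). In raw units the groups overlap at 8 and 24 h, before any scaling of the arrays. The reference channel had medians of 3721 and 4162 units at 12 h and of 2703 and 3928 at 24 h, saline before MAA. With each channel normalised on its own, the log2 change in the testis channel was -0.69, -1.41 and -1.09 at 8, 12 and 24 h. In the reference channel it was 0.16, 0.20 and 0.09, with SE 0.08 at each time. The adjusted p in the reference channel was 0.78 at 8 h and 0.70 at 24 h (limma).

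**Figure D2:**
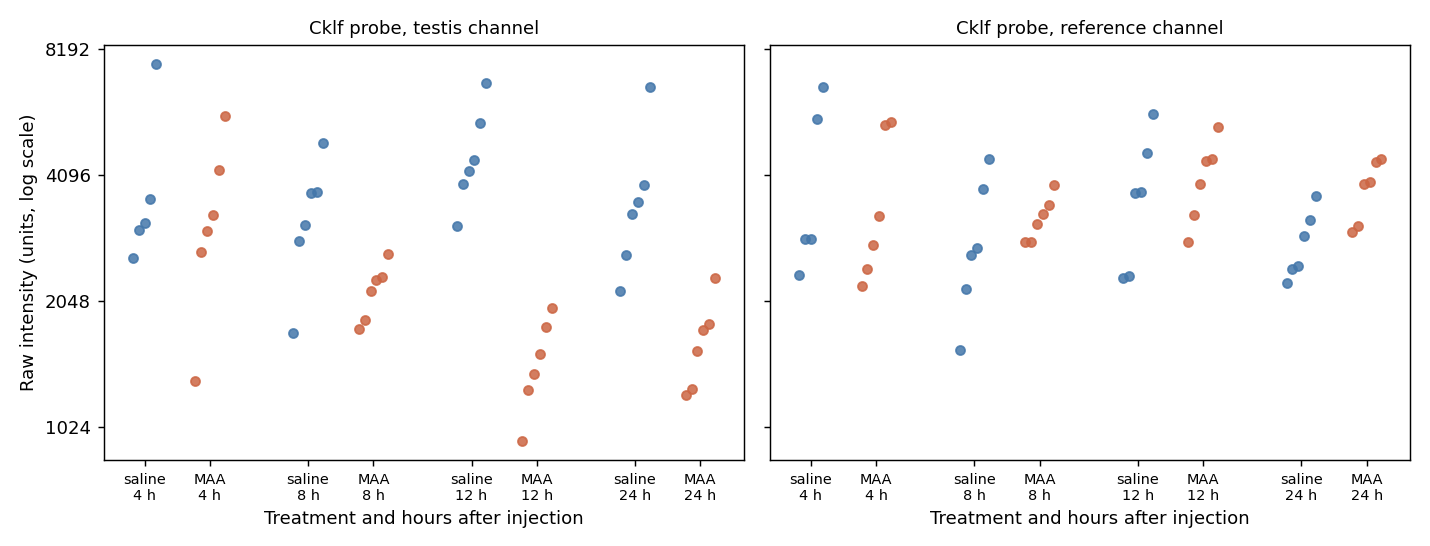
Raw intensity of the Cklf probe in the testis channel (left) and the reference channel (right), by treatment and hours after injection, on a log scale. Each point is 1 array, blue for saline and orange for MAA. Treated testis intensities of 12 h lie between 945 and 1974 units, below all saline arrays of that time, while the reference intensities of the groups overlap.

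The gene whose levels were most like Cklf's across the arrays was Cks2. Likeness was Pearson's r over 47 arrays, after removal of hybridisation date. Since the animals form treated and saline clusters and Cklf was chosen for its response, r and the changes of genes picked by it are descriptions without a test. The median r over 12735 probes with 1 symbol was -0.05, and the 99th percentile was 0.66. Cks2, a cyclin-dependent kinase subunit needed in mouse meiosis, had r = 0.95 over all arrays, 0.93 over the 24 treated and 0.81 over the 23 saline ones. With group and date both removed its r was 0.83. Its log2 changes at 4, 8, 12 and 24 h were -0.06, -0.63, -1.50 and -1.03, beside -0.19, -0.76, -1.58 and -1.02 for Cklf.

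Tex30 (r = 0.91), the mRNA export component Thoc7 (0.90) and the histone H3 lysine demethylase Kdm5b (0.89) came next. The transcription repressor subunit Dr1, the Polycomb group protein Pcgf6, the cytochrome oxidase assembly factor Cox19 and the germ cell POU factor Pou5f2 each had r = 0.88. Calm2, which encodes calmodulin, and the mRNA export factor Nxt1 had r = 0.87. With group and date removed the r of these 9 genes ran from 0.56 (Nxt1) to 0.84 (Dr1). Over treated arrays it ran from 0.68 (Nxt1) to 0.88 (Thoc7), and over saline arrays from 0.24 (Kdm5b) to 0.78 (Tex30 and Dr1). The log2 changes of the 9 at 24 h ran from -1.46 (Pou5f2) to -0.35 (Calm2). Since the genes were picked on these same arrays, their direction follows from the choice. For the same reason no test of them is given. On the 24 h arrays alone the changes of the 10, Cks2 among them, ran from -1.54 (Pou5f2) to -0.37 (Calm2). Treated animal 40 had the lowest Cklf level of the treated group of 24 h. Without that animal Tex30, Thoc7 and Pcgf6 stood at -0.41, -0.56 and -0.46 at 24 h. Without saline animal 41 of 24 h they stood at -0.58, -0.65 and -0.56.

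The genes most unlike Cklf were higher after MAA, as the choice by negative r on these arrays would have it. Cdc42se1, a small effector of the GTPase Cdc42, had r = -0.92, the interferon gamma receptor chain Ifngr2 -0.89, and the phospholipid-binding Anxa5 and the glutathione transferase Gstp1 -0.88 each. S100a10, the partner of annexin A2, had r = -0.86. Over treated arrays r ran from -0.85 (Cdc42se1) to -0.68 (S100a10), and over saline arrays from -0.70 (Gstp1) to -0.36 (Ifngr2). At 24 h, when 2.25% of all probes rose, their log2 changes ran from 0.50 (Cdc42se1 and Ifngr2) to 1.13 (S100a10). That of Ifngr2 ran from 0.37 to 0.62 over the fits that left out 1 array. With median centring in place of loess Cdc42se1 was at 0.14, Ifngr2 at 0.37, Anxa5 at 0.39, Gstp1 at 0.67 and S100a10 at 0.86. Cklf itself was at -1.26 with median centring.

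Over the 23 saline arrays alone the genes most like Cklf were Rnf34 (r = 0.82), Dvl1, Gcc2 and Cks2 (0.81 each) and Rfc3 (0.79). Of these, Cks2 and Dvl1, a Wnt pathway protein, were also alike over the treated arrays (0.93 and 0.73). Rnf34 (-0.35) and Gcc2 (-0.19) were not, and Rfc3 stood at 0.42. Without removal of date the saline r was lower for all 5 genes, at 0.29 for Rnf34, 0.23 for Dvl1, 0.39 for Gcc2, 0.56 for Cks2 and 0.53 for Rfc3.

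**Figure D3:**
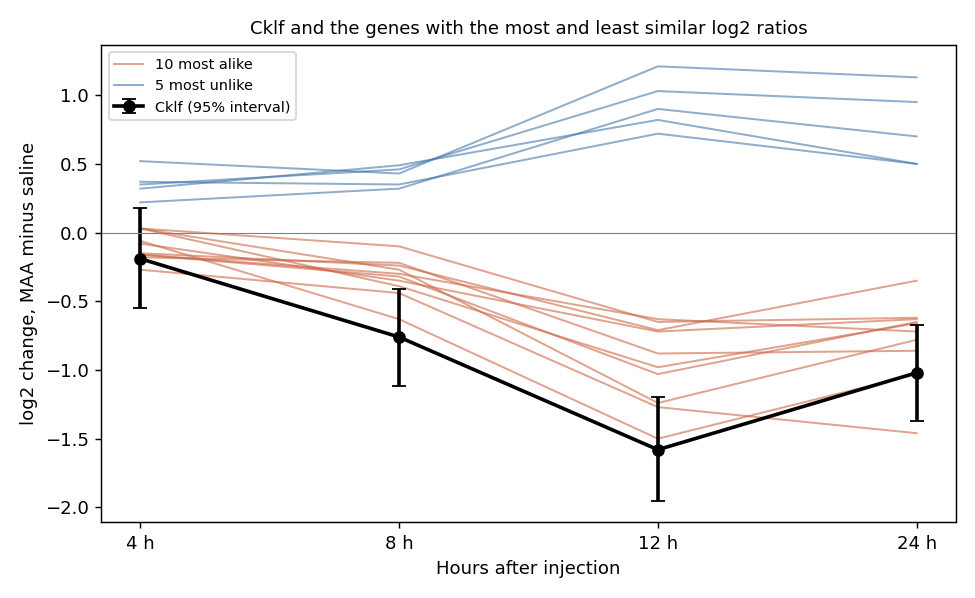
Log2 change, MAA minus saline, at 4, 8, 12 and 24 h for Cklf (black, with 95% intervals), the 10 genes with the most similar log2 ratios (orange) and the 5 with the most dissimilar ones (blue). Cklf runs from -0.19 at 4 h to -1.58 at 12 h and -1.02 at 24 h.

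No measured relative of Cklf passed at any time, where 0.0195%, 0.00976%, 2.53% and 2.99% of all probes passed at 4, 8, 12 and 24 h, so that none among so few genes is near the background. The array has named probes for 5 of the other 9 family genes, Cmtm3, Cmtm5, Cmtm6, Cmtm7 and Cmtm8, and the remaining 4 were not analysed here. At 12 h, 0 of these 5 passed by limma and 1 had an unadjusted p under 0.05. Their median log2 change was 0.18, where the median of all genes was 0.05. Of all 20500 probes, 1515, 1459, 3010 and 2935 had an unadjusted p under 0.05 at 4, 8, 12 and 24 h. At 24 h, 0 of 5 passed, 0 had an unadjusted p under 0.05 and the median was 0.04, where the median of all genes was 0.04. Cmtm6, which stabilises PD-L1 in human cells, was at 0.20 ± 0.15 (SE) at 12 h and 0.12 ± 0.14 at 24 h. Cmtm3 has 3 probes, and they disagree at 12 h, with 0.30, -0.26 and -0.20. Cmtm7 had the largest value at 4 h, 0.53 ± 0.20 (adjusted p 0.52).

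Of 11 other genes with a MARVEL domain measured, 0 passed at 12 h and 0 at 24 h by limma, with 1 at an unadjusted p under 0.05 at each time and a median of -0.05 at both. Of Ccr4 and its chemokine ligands Ccl17 and Ccl22, 0 passed and 0 had an unadjusted p under 0.05 at any time. Ccr4 was above background on 28 of 47 arrays and stood at -0.12 ± 0.19 (SE) at 12 h and 0.16 ± 0.17 at 24 h. Ccl17 and Ccl22 were above background on 21 and 23 arrays, so no change is given for them.

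Within 500 kb of Cklf on the chromosome, 10 other genes have a probe, Cmtm3 among them. Of these, 1 fell at 24 h, where 0.737% of all probes fell. Dync1li2, a dynein light intermediate chain, was at -0.49 ± 0.13 (SE, adjusted p 0.029, limma) at 12 h and at -0.56 ± 0.12 (adjusted p 0.0054) at 24 h, with r = 0.78 to Cklf. On the 24 h arrays alone it did not pass (-0.53, adjusted p 0.23). Tk2, the mitochondrial thymidine kinase and the next gene to Cklf in the annotation, was at -0.22 ± 0.13 (adjusted p 0.46) at 12 h and -0.15 ± 0.13 (adjusted p 0.66) at 24 h. The median of the 10 was -0.10 at 24 h, against 0.04 for all genes, and some of the 10 were above background on few arrays (Cdh16 on 3).

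**Figure D4:**
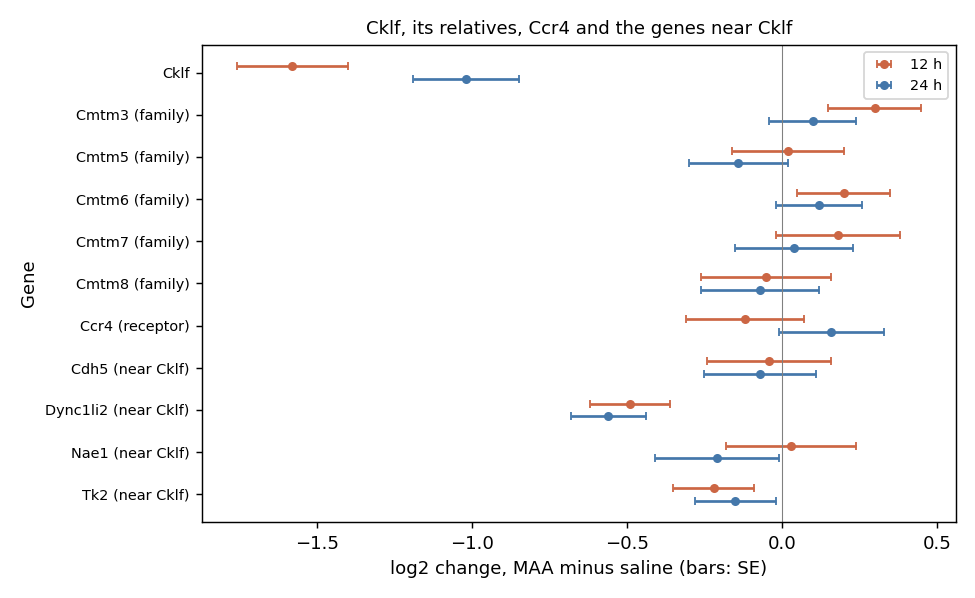
Log2 change, MAA minus saline, at 12 h (orange) and 24 h (blue) for Cklf, its measured family members, Ccr4 and the genes within 500 kb of Cklf, for genes above background on at least 24 arrays. Bars show SE. Cklf stands at -1.58 and -1.02, and Dync1li2 stands at -0.49 and -0.56.

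Markers of the cell types in the testis were read beside Cklf, and their part in its fall was not tested. The mean level of the spermatocyte markers was lower in treated animals, though most of the 11 did not pass. Their mean level lay between 0.51 and 0.86 in treated animals of 12 h and between 0.89 and 1.12 in saline ones, and at 24 h between 0.45 and 0.78 and between 0.78 and 1.07. At 12 h 4 of 11 fell, where 0.839% of all probes fell: the synaptonemal complex genes Sycp1 (-0.99, adjusted p 8e-04), Sycp2 (-0.66, adjusted p 0.012) and Sycp3 (-0.63, adjusted p 0.03), and Pou5f2 (-1.27, adjusted p 0.00032). At 24 h the mismatch repair gene Mlh3 (-0.68, adjusted p 0.017) and Pou5f2 were lower and the cohesin gene Smc1b was higher (0.45, adjusted p 0.045), all by limma, where 2.99% of all probes passed. With median centring and with the deposited ratio 0 were higher and 3 lower at 24 h, and in the testis channel alone 1 was higher and 5 lower. The list was drawn up with earlier results of these arrays known, and its median was -0.32 at 12 h and -0.07 at 24 h, against 0.05 and 0.04 for all genes. With median centring it was -0.57 and -0.44, with the deposited ratio -0.42 and -0.23, and in the testis channel alone -0.54 and -0.40. The r to Cklf was 0.88 for Pou5f2, 0.85 for Sycp2, 0.81 for Sycp3, 0.77 for Sycp1, 0.68 for Mlh3 and 0.52 for Tex101. For Msh5, Stag3, Hspa2, Smc1b and Ldhc it lay between -0.35 and 0.08. Ldhc, which encodes the lactate dehydrogenase of late spermatocytes and spermatids, was saturated on the median array.

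The leukocyte markers gave no call, near the background of 2.53% and 2.99% of all probes. Of 17 macrophage and leukocyte markers, 0 passed at 12 h and 0 at 24 h by limma, with 2 and 3 at an unadjusted p under 0.05 and medians of 0.10 and 0.08. Their mean level lay between -0.87 and -0.67 in treated animals of 12 h and between -0.98 and -0.81 in saline ones. At 24 h it lay between -0.83 and -0.65 and between -0.94 and -0.74. Of all 20500 probes, 3010 at 12 h and 2935 at 24 h had an unadjusted p under 0.05 (limma). No round spermatid marker of 7 passed at either time (5 and 0 at an unadjusted p under 0.05, medians 0.14 and 0.04). At 12 h the round spermatid changes went in both directions, from -0.64 (Gopc) to 0.41 (Tcp11). Of 11 elongating spermatid markers, 2 rose at 12 h, Hils1 (0.51) and Spata18 (0.36), where 1.69% of all probes rose, and 0 passed at 24 h (7 at an unadjusted p under 0.05). Of the 11, Prm3, Tnp1, Odf1 and Smcp were saturated on the median array. Neither rise passed with median centring, where 0 of the 11 did.

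Among markers of somatic cells and spermatogonia 7 calls were made at 12 and 24 h, all of them rises, where rises outnumbered falls on the whole array (1.69% against 0.839% of probes at 12 h and 2.25% against 0.737% at 24 h). Of 11 Sertoli cell markers the inhibin subunit gene Inha rose at 12 h (0.73, adjusted p 0.0028) and the protease gene Ctsl at 24 h (0.90, adjusted p 0.0019). Of 6 Leydig cell markers Star, which carries cholesterol into mitochondria, rose at 24 h (1.09, adjusted p 0.0087). Of 5 peritubular myoid markers Actg2 (0.65) and Myl9 (0.48) rose at 12 h, and Myl9 (0.58) at 24 h. With median centring no myoid marker passed at either time and no Sertoli cell marker at 24 h. Of 7 spermatogonia markers Uchl1 rose at 12 h (0.78, adjusted p 0.013). Of 4 epididymal markers 0 passed at 12 and 24 h, with 0 at an unadjusted p under 0.05.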

How the data were processed

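The members and lists were chosen with earlier results of these data known. The deposited array files give, per the file headers, raw intensities of both channels without background columns, processed intensities, a log2 ratio that the authors normalized, and flags. How that ratio was normalized is not stated in the labels or headers. Of 22573 spots per array, 2073 have no processed value on any array and were left out. The raw channels were put through limma's within-array loess, uncorrected for background, since the files carry no background column. Correlation with the deposited log2 ratio was at least 0.984.

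The deposited series table of log2 ratios was used as an alternative only: 39 of its 47 columns equal another array's ratio, 7 their own (tolerance 1e-06).

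One limma model (version 3.58.1, R 4.3.3) over all 47 arrays had 8 groups and 12 hybridisation dates as fixed terms. Tests were two-sided, with p adjusted by Benjamini-Hochberg across the 20500 probes, and a probe passed below 0.05. Of the dates, 8 hold both treatments. The fit was tested on simulated data. Lists used the probe of a gene that is brightest in the testis channel. Genes were named by likeness to Cklf (10 most alike, 5 most unlike, 5 over saline arrays) and from the lists by smallest adjusted p or call, and every measured relative or neighbour could be named. Gmcl1, Gopc, Tcp11 and the markers named only for saturation or for their r to Cklf were named after their values were seen. Nothing in the labels says that animals were pooled. Alternatives changed the date term, scaling, channel, filter or array set.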

Additional observations from a re-analysis of the deposited data

Results flagged for a closer look

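The Cklf level of treated animal 3 of 4 h, -0.65, lies far from the other 5 animals of its group, whose lowest level was 0.61. The gap to the nearest animal is 0.789 of the group's range, above Dixon's 95% critical value of 0.625 for 6 animals. Chance flags about 1 in 20 groups, and 8 groups were looked at. The values without this animal stand beside the results at 4, 8 and 24 h.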

How the results depend on the processing

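No paired analysis was possible because animal numbers do not recur between groups. The direction of the Cklf change at 8, 12 and 24 h held with another date term, scaling, filter or testis signal, and when 1 array was left out. At 8 h it passed with no date term (-0.76), with date as a random block (-0.75) and in the testis channel alone (-0.69). It also passed, chosen after seeing the data, without both arrays that hold the same reference channel (-0.86). Median centring, scale normalisation, the deposited ratio, the processed channels, the filter and the 8 h arrays alone gave no pass at 8 h. At 24 h it did not pass on the arrays of that time alone (-1.09). With median centring the 24 h minus 4 h difference was -1.25 and passed. In the channel headed Cy5 alone, the reference, Cklf stood at 0.16, 0.20 and 0.09 at 8, 12 and 24 h, with 0.13 for 24 h minus 4 h and 0.20 for 8 h minus 4 h. In that channel at 24 h some other genes had a sign opposite to that of their ratio. Tex30 was at 0.09, Thoc7 0.05, Kdm5b 0.08, Dr1 0.06, Cox19 0.23, Calm2 0.06 and Nxt1 0.02. Dync1li2 was at 0.21, Cdc42se1 -0.04, Ifngr2 -0.06 and S100a10 -0.08. The sign was not opposite for Gstp1 (0.26), Pou5f2 (-0.07), Pcgf6 (-0.03), Cks2 (-0.01) and Anxa5 (0). In the series table, most of whose columns hold another array's ratio, Cklf stood at 0.13, 1.25, 0.30 and -0.32 at 4, 8, 12 and 24 h, and 8 h minus 4 h at 1.12.

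The probes passing at 4, 8, 12 and 24 h numbered 4, 2, 518 and 612. They were 14, 1, 153 and 193 with median centring, 17 and 32 (4 and 8 h) and 1075 (24 h) in the testis channel alone, and 13, 10, 883 and 977 among probes above background. Scale normalisation gave 7, 5 and 320 at 4, 8 and 12 h, the deposited ratio 5 at 8 h and 378 at 24 h, and the processed channels 7, 6 and 354 at 4, 8 and 24 h. Counts were 13 at 8 h with no date term, 10 and 18 at 4 and 8 h with a random block, and 11 at 8 h without both arrays of 1 reference channel. Each time on its own arrays gave 0, 0, 0 and 16, the Cy5 channel 2, 0, 0 and 0, and with the series table none passed at any time (0, 0, 0 and 0). The cause was not tested. Of the probes passing at 12 and 24 h, 66.8% and 75.3% were higher, against 18.3% and 10.4% with median centring, 32.5% and 43.7% in the deposited ratio, 35.6% and 42.9% in the processed channels and 48.6% and 51.8% in the testis channel alone.

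Leaving out each of the 47 arrays gave -0.26 to -0.03, -0.84 to -0.72, -1.68 to -1.42 and -1.09 to -0.89 for Cklf at 4, 8, 12 and 24 h. The differences ran from -0.32 to -0.14 (24 h minus 8 h), -1.05 to -0.71 (24 h minus 4 h) and -0.79 to -0.46 (8 h minus 4 h). The counts ran from 3 to 6, 2 to 9, 226 to 614 and 305 to 777, lowest at 12 h without treated animal 36 and at 24 h without treated animal 40. The Cklf probe was above background on 47 of 47 arrays, but the intensities were not corrected for background. Its dimmest testis value was 945 units (treated animal 31 of 12 h), on an array whose median testis intensity was 709. With the deposited ratio the change was -1.82 at 12 h and -1.26 at 24 h. Whether background made the fall look smaller was not tested.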
